A study of Mus musculus with 30 samples.

Results

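Blood vessels and the inner surfaces of the heart are lined by endothelial cells, and 10 genes that mark the blood endothelium were followed in mouse hearts from mid-gestation to adulthood. They were Pecam1 and Cdh5 (adhesion at cell contacts), Kdr and Flt1 (receptors for vascular endothelial growth factor, VEGF), Tek and Tie1 (the Tie receptors), Emcn (a surface sialomucin), Nos3 (endothelial nitric oxide synthase), Aqp1 (a water channel) and Btnl9 (a butyrophilin-like surface protein). The members were taken by name from the 48820 genes of the count table, and all 10 were found. Btnl9 was selected on its strong rise in these same data, so its levels are given as a description, with no test.

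The samples were hearts of untreated wild-type (WT) mice at 5 embryonic ages 2 days apart, E10.5 up to E18.5 (days of gestation), on postnatal day 1 (P1) and at 1, 2, 4 and 8 weeks (1W, 2W, 4W and 8W). Each age had 3 libraries, 30 in all, made from poly(A)-selected RNA. The strain is not named in the sources used here. Whether the replicates of an age were separate animals is not stated in the labels, so a p-value here reflects only how much these samples spread. Because whole hearts were used, fewer endothelial cells and less RNA per endothelial cell cannot be told apart.

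As background, VEGF-A made by heart muscle and other cells binds KDR, the main signalling receptor, and FLT1, which binds it more tightly but signals weakly and can act as a decoy. Angiopoietins bind TEK, while TIE1 has no well-defined ligand of its own and modulates TEK signalling. In the embryonic heart the endothelium comprises the endocardium and the forming coronary vessels, and after birth the capillary bed expands around the growing muscle fibres.

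Library totals ranged from 23164941 to 50519457 counts. Levels are given in CPM, the count of a gene relative to its library total, scaled with TMM factors (which align the bulk of genes between libraries), and a change is the log2 of the later over the earlier level, ± SE. Calls are made where the edgeR quasi-likelihood test gave an adjusted p under 0.05 over the 19280 genes tested. The TMM factors fell from between 1.16 and 1.34 at E10.5 to between 0.603 and 0.631 at 8W, and levels at distant ages depend on them. E10.5 replicate 2 stood apart from its group, with a correlation of 0.975 and 0.977 with replicates 1 and 3, which had 0.986 with each other. The lowest correlation within an age, 0.974, was that of 2W replicates 2 and 3. All 3 P1 libraries carried transcripts of the Y chromosome and no Xist, the RNA of the inactive X chromosome, and all 3 libraries of 4W and of 8W carried Xist and no Y transcripts. Both kinds of transcript were found in all 3 libraries of E10.5, in E12.5 replicates 1 and 2 and in E14.5 replicates 1 and 3.

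The members did not follow one course. The summed level of the 10 genes went from 910 ± 141 CPM (SD, n = 3) at E10.5 to 1422 ± 76.6 by E18.5, 1623 ± 70.5 by P1 and 2461 ± 7.97 by 2W, and stood at 2018 ± 23.6 at 8W. Pecam1, Cdh5, Kdr, Tie1 and Btnl9 had their highest mean at 2W, Flt1 and Aqp1 at 8W, Emcn at 4W, Nos3 at E12.5 and Tek at E10.5. All 9 tested members differed over the ages, with edgeR adjusted p from 2e-25 (Aqp1) to 0.00054 (Emcn), where 93.6% of all genes tested did so. Over the 10 age means, 14 of the 45 pairs of members had a correlation of log2 CPM below 0 (n = 10 ages, a description over shared libraries). The values went from -0.68 for Tek with Aqp1 to 0.92 for Pecam1 with Btnl9. Pairs with Btnl9 hold a gene selected on these data, whose E10.5 mean rests on 1 count. Among pairs without it, Pecam1 with Cdh5 was highest (0.92).

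**Figure D1:**
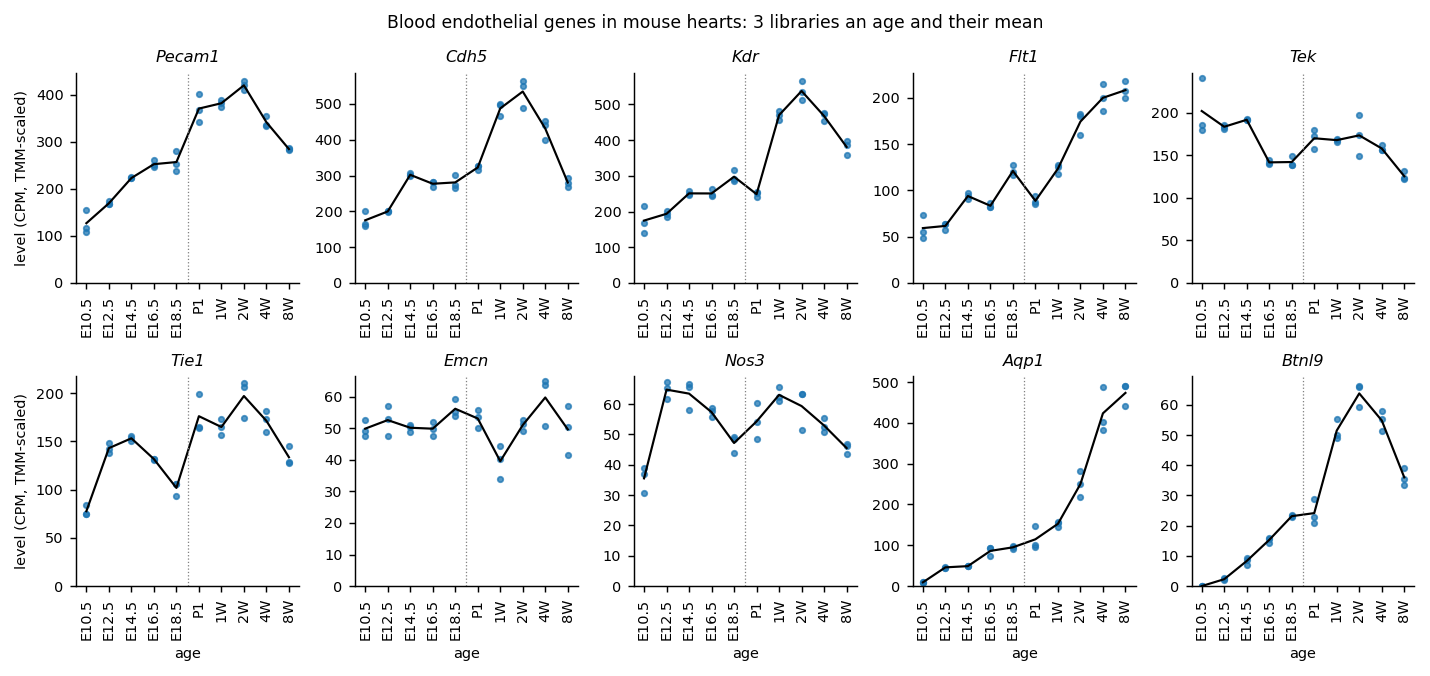
Level of each gene (vertical axis, CPM scaled by TMM factors, from 0) by age (horizontal axis). Points are single libraries, 3 an age, the line joins their means, and the dotted line marks birth; the mean of Aqp1 is higher at each age than at the one before, up to 473.3 CPM at 8W, and Tek is highest at E10.5.

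Levels between genes can be compared only per length, and here CPM per kilobase of exon (FPKM) was used. Tek led the 10 genes at E10.5 with 42.8 ± 7.08 FPKM, next to Cdh5 with 41.6 ± 5.56, a difference within their spread. Cdh5 led from E12.5 to 2W, reaching 127 ± 9.44 FPKM at 2W. Aqp1, the ninth of the 10 at E10.5 with 3.50 ± 0.412 FPKM, led at 4W with 161 ± 21.4 and at 8W with 180 ± 10.7. Btnl9 had the lowest level at all ages but 1W and 2W, when Emcn stood below it.

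Pecam1 encodes the immunoglobulin-type adhesion molecule PECAM-1 (CD31), which is also carried by platelets and some leukocytes (chromosome 11, 106654217 to 106750628, minus strand, GRCm38). Its 3 libraries held 117.5, 107.9 and 155.6 CPM in E10.5, 280.8, 252.6 and 237.6 in E18.5, 367.4, 401.6 and 343 in P1, 429.8, 409.5 and 421.2 in 2W and 282.1, 285.4 and 286.3 in 8W. Replicate 3 was the highest at E10.5, and the groups of E10.5, E18.5, P1 and 2W did not overlap. The log2 change was 1.02 ± 0.09 from E10.5 to E18.5 (edgeR adjusted p = 1.1e-11), 0.53 ± 0.09 from E18.5 to P1 (1.5e-05) and -0.38 ± 0.09 from P1 to 8W (0.00036).

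Cdh5 encodes VE-cadherin, the cadherin of endothelial junctions (chromosome 8, 104101625 to 104144511, plus strand). The libraries held 158, 165.4 and 201.7 CPM in E10.5, 301.7, 274.9 and 266 in E18.5, 315.2, 326.4 and 326.3 in P1, 565.6, 549.1 and 490.1 in 2W and 278.5, 268.5 and 294.4 in 8W. The 8W libraries overlapped those of E18.5, so the adult level lay within the spread of the late fetal one. Cdh5 rose from E10.5 to E18.5 (0.68 ± 0.08, edgeR adjusted p = 6.7e-09). It passed narrowly from E18.5 to P1 (0.20 ± 0.08, 0.046), and that call was lost in 26 of 30 fits that left out 1 library, with adjusted p of up to 0.18. The fall from P1 to 8W (-0.20 ± 0.08, 0.027) was lost without P1 replicate 2 or 3 or 8W replicate 1 or 2, with adjusted p of up to 0.12. The step from P1 to 1W was larger (0.60 ± 0.08, 5.1e-07), and so was the fall from 4W to 8W (-0.62 ± 0.08, 1.3e-06).

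Kdr encodes VEGF receptor 2 (chromosome 5, 75932827 to 75978458, minus strand). Its libraries held 168, 140.5 and 215.7 CPM in E10.5, 316, 291.3 and 285.5 in E18.5, 253.7, 241.8 and 250.6 in P1, 457, 470.9 and 482.8 in 1W, 511.9, 566.3 and 535.1 in 2W and 397.8, 358.8 and 386.4 in 8W. The P1 libraries were all below those of E18.5, and the 1W libraries all above both. Kdr rose from E10.5 to E18.5 (0.77 ± 0.09, edgeR adjusted p = 1.1e-08) and fell from E18.5 to P1 (-0.26 ± 0.09, 0.025). The fall was lost without E18.5 replicate 1 or P1 replicate 2, with adjusted p of up to 0.11. The rise from P1 to 1W was 0.92 ± 0.09 (2.3e-09), the largest of Kdr's steps between neighbouring ages. Kdr was higher at 8W than at P1 (0.62 ± 0.09, 6.7e-07), but with library size alone as the scaling the sign turned (-0.16, edgeR adjusted p = 0.19).

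Flt1 encodes VEGF receptor 1, whose soluble and membrane forms the counts do not separate (chromosome 5, 147561604 to 147726011, minus strand). Its libraries held 55, 48.85 and 73.92 CPM in E10.5, 127, 119.9 and 116.2 in E18.5, 94.12, 84.79 and 87.3 in P1, 160.1, 180 and 183 in 2W and 207.3, 218.2 and 199.8 in 8W. As for Kdr, the P1 libraries lay below all of E18.5, but the later course differed, since the means of Flt1 went on to 4W and 8W without a fall. Flt1 rose from E10.5 to E18.5 (1.03 ± 0.10, edgeR adjusted p = 3.8e-11), fell from E18.5 to P1 (-0.45 ± 0.10, 0.00031) and rose from P1 to 8W (1.23 ± 0.10, 5.4e-13). The 8W and 4W libraries overlapped (0.06 ± 0.09, 0.69).

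The balance of the VEGF receptors was followed as a share of counts, which does not depend on scaling between libraries. Flt1 made up 25.3% ± 0.591 (SD, n = 3) of the Flt1 and Kdr counts at E10.5, 28.9% ± 0.244 by E18.5, only 20.8% ± 0.474 by 1W and 35.4% ± 2.11 by 8W. The 1W share was the lowest of all ages, with libraries between 20.4% and 21.3%, and the 8W share the highest, with libraries between 34.1% and 37.8%. The share differed between ages (permutation test of the F ratio with 100000 resamples, adjusted over 2 shares, p = 1e-05, the smallest it can give). Per kilobase of exon, Flt1 held 26.8% of the sum at 8W.

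Tek encodes the angiopoietin receptor TIE2 (chromosome 4, 94739289 to 94874976, plus strand). Its libraries held 185.5, 179.8 and 240.2 CPM in E10.5, 191.5, 192.3 and 190.8 in E14.5, 149.4, 137.9 and 138.4 in E18.5, 156.8, 172.8 and 179.9 in P1 and 123.2, 121.5 and 130.8 in 8W. The E10.5 mean was raised by replicate 3, while replicates 1 and 2 lay just below the E14.5 libraries, and the 8W libraries were below those of all other ages. Tek fell from E10.5 to E18.5 (-0.51 ± 0.09, edgeR adjusted p = 7.1e-06), and most of the fall came between E14.5 and E16.5 (-0.44 ± 0.09, 0.00031). It rose from E18.5 to P1 (0.26 ± 0.09, 0.019), a call lost without any 1 of E18.5 replicates 2 and 3 and P1 replicates 2 and 3, with adjusted p of up to 0.11, and with library size alone (0.27). The fall from P1 to 8W was -0.44 ± 0.09 (5.9e-05).

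Tie1 encodes the orphan Tie receptor (chromosome 4, 118471191 to 118490061, minus strand). Its libraries held 74.57, 74.44 and 83.83 CPM in E10.5, 138.2, 148 and 142.4 in E12.5, 106.1, 106 and 93.19 in E18.5, 164.8, 199 and 164.2 in P1, 206, 210.4 and 174.3 in 2W and 127.6, 144.7 and 128.1 in 8W. The E18.5 libraries were below those of the ages on either side, E16.5 and P1, without overlap. Tie1 rose from E10.5 to E12.5 (0.88 ± 0.08, edgeR adjusted p = 1.7e-10), fell from E16.5 to E18.5 (-0.37 ± 0.08, 0.0013), and of the 9 tested members changed most from E18.5 to P1 (0.79 ± 0.08, 4.8e-09). It fell from P1 to 8W (-0.40 ± 0.08, 9.3e-05).

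Tek made up 72.1% ± 1.82 (SD, n = 3) of the Tek and Tie1 counts at E10.5, 56.2% ± 1.03 by E12.5, 58.3% ± 1.62 by E18.5, 49.2% ± 2.92 by P1, 46.8% ± 5.92 by 2W and 48.4% ± 2.51 by 8W. The E10.5 libraries, between 70.7% and 74.1%, lay above all others. After birth the libraries of all ages overlapped, and those of 2W spread from 41.4% to 53.1%. The share differed between ages (permutation test as for Flt1, adjusted p = 1e-05, the smallest it can give).

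**Figure D2:**
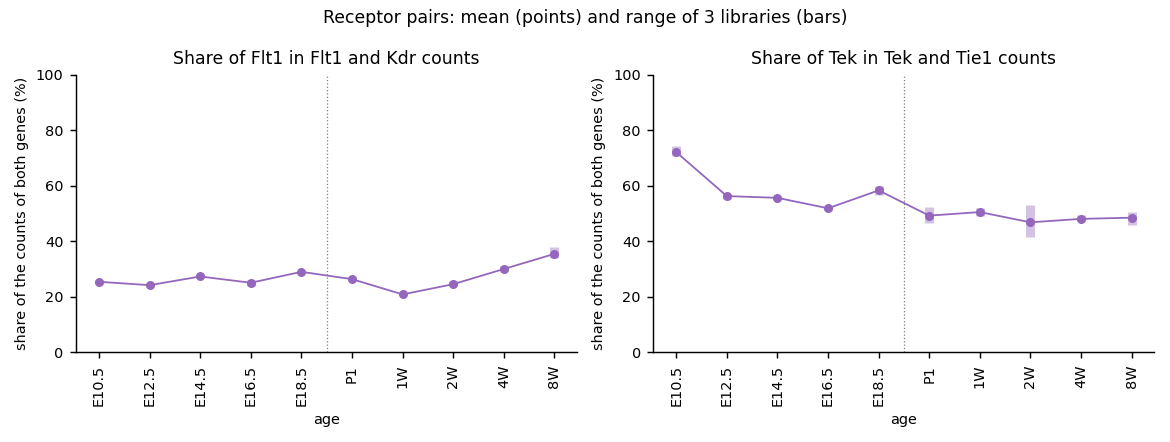
Share of Flt1 in the counts of Flt1 and Kdr (left) and of Tek in those of Tek and Tie1 (right), in percent from 0 to 100 (vertical axes) by age (horizontal axes). Points are means of 3 libraries, bars their range, and the dotted line marks birth; Flt1 reaches 35.4% at 8W, and Tek drops from 72.1% at E10.5 to 56.2% at E12.5.

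Emcn encodes endomucin, a heavily glycosylated protein of venous and capillary endothelium and endocardium (chromosome 3, 137341067 to 137432185, plus strand). Its promoter and that of Btnl9 are shown because these were the only 2 of the 7 member promoters in the RefSeq table (build GRCm38.p6) that held CAGGAAG on either strand. CAGGAAG contains GGAA, the core bound by ETS factors, a family active in endothelium. The window runs from 250 bases before to 50 after the annotated start, here chr3:137340828-137341127 on the plus strand. Capitals mark the match, which reads CTTCCTG on the printed strand and begins at position -174 from the start.
Emcn: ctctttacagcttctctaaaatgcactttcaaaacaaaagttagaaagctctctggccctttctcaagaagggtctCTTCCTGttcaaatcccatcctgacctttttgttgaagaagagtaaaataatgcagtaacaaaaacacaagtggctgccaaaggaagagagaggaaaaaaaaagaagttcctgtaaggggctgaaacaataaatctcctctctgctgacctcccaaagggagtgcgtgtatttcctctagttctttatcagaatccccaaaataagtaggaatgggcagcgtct
Among all 32851 promoters in the table, 13.3% held CAGGAAG on either strand, and GGAA, which overlaps it, was held by 96.0%. A match describes letters only, not binding.

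Emcn had the smallest ratio of the highest to the lowest age mean of the 10 genes, 1.51. Its libraries held 49.25, 47.57 and 52.74 CPM in E10.5, 53.94, 55.2 and 59.29 in E18.5, 50.02, 55.77 and 53.41 in P1, 33.88, 40.26 and 44.47 in 1W, 64.84, 63.52 and 50.82 in 4W and 56.99, 41.66 and 50.25 in 8W. The 1W libraries were low and overlapped only those of 8W, and all 9 pairs of ages next to each other in the order of the means overlapped. Neither the change from E10.5 to E18.5 (0.17 ± 0.10, edgeR adjusted p = 0.13) nor that from E18.5 to P1 (-0.08 ± 0.10, 0.55) nor that from P1 to 8W (-0.10 ± 0.10, 0.39) passed. With upper quartile factors or library size alone, Emcn fell from P1 to 8W (-0.29 and -0.87). The fall from P1 to 1W (-0.42 ± 0.10, 0.001) and the rise from 1W to 2W (0.37 ± 0.10, 0.0051) passed.

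Nos3 makes the nitric oxide that relaxes vessels (chromosome 5, 24364810 to 24384474, plus strand). Its libraries held 37.01, 30.67 and 38.85 CPM in E10.5, 61.7, 67.28 and 65.29 in E12.5, 48.4, 49.08 and 44 in E18.5, 48.51, 53.96 and 60.38 in P1, 62.33, 61.13 and 65.64 in 1W and 46.02, 46.99 and 43.47 in 8W. The E10.5 libraries were below all others, and those of E12.5 and 1W overlapped. Nos3 rose from E10.5 to E12.5 (0.87 ± 0.09, edgeR adjusted p = 7.5e-10) and fell from E16.5 to E18.5 (-0.28 ± 0.09, 0.018), which left E18.5 higher than E10.5 (0.41 ± 0.09, 0.00016). The change from E18.5 to P1 did not pass (0.20 ± 0.09, 0.067), and that from P1 to 8W did (-0.26 ± 0.09, 0.012). That fall was lost without P1 replicate 3 or 8W replicate 3, with adjusted p of up to 0.13, and with a term for sex (0.051). Of its exonic length, 32.3% is shared with 2 genes of the opposite strand, Gm15587 and Atg9b. Their counts were at most 8.22% and 3.43% of the Nos3 count of a library, and 20 of the 30 Nos3 counts were not whole numbers. The strand setting of the counting is not given, so reads of these genes cannot be told apart with certainty.

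Aqp1 encodes aquaporin 1, the water channel of capillary endothelium and of red blood cells (chromosome 6, 55336432 to 55348555, plus strand). Its promoter is shown because Aqp1 had the widest range of the tested members, 51.5 times between the highest and the lowest age mean. The RefSeq window is chr6:55336049-55336348 on the plus strand of GRCm38.p6, and it ends before the gene start given above. It held no CAGGAAG, which is the usual case, since 13.3% of all promoters held it.
Aqp1: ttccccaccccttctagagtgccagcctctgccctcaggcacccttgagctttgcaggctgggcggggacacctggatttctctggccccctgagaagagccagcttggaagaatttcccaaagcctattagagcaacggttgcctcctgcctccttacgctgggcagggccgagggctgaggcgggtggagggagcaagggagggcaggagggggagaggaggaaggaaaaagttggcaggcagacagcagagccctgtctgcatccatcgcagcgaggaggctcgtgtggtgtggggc
The libraries held 10.14, 9.401 and 8.008 CPM in E10.5, 45.4, 45.14 and 47.21 in E12.5, 98.61, 96.46 and 89.92 in E18.5, 100.7, 147.2 and 96.13 in P1, 249.2, 218.7 and 282 in 2W, 381.3, 487.3 and 401.3 in 4W and 489.6, 489.6 and 440.7 in 8W. Each mean was above that of the age before, while the libraries of E18.5 overlapped those of E16.5, those of P1 overlapped those of E18.5 and of 1W, and those of 8W overlapped those of 4W. The log2 change was 3.37 ± 0.14 from E10.5 to E18.5 (edgeR adjusted p = 1.8e-19), 0.27 ± 0.12 from E18.5 to P1 (0.074) and 2.05 ± 0.12 from P1 to 8W (3.8e-15). Replicate 2 of P1 was high, and without it the change from E18.5 to P1 was 0.05 (0.77), while without P1 replicate 1 or 3 it passed (0.36 and 0.37).

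Because red cells also carry Aqp1, the erythroid markers (globins, Klf1 and other genes of red cells) are set beside it. The summed level of 13 of them was 6662 to 14834 CPM at E10.5, 20055 to 23375 in E12.5, 4840 to 6785 in E14.5, 18919 to 33565 in E16.5, 2319 to 6606 in E18.5, 3675 to 7113 in P1, 2025 to 3074 in 2W, 3767 to 10829 in 4W and 2156 to 2760 in 8W. It was higher in all libraries of E12.5, E16.5 and 4W than in those of the age before, as was Aqp1 at E12.5, E16.5 and 4W (log2 changes of 2.33 ± 0.13, 0.82 ± 0.12 and 0.76 ± 0.12). The sum was lower in all libraries of E14.5, E18.5, 1W (2817 to 3236 CPM) and 8W than in those of the age before. Of these 4 steps, Aqp1 rose in that to 1W (0.41 ± 0.12) and was not called in the others. From 1W to 2W the sums overlapped, and Aqp1 rose (0.71 ± 0.12). From E10.5 to E18.5, 8 of the 13 fell and 2 rose (30.4% and 32.9% of all genes). From P1 to 8W, 10 fell and none rose (35.1% and 31.8%), and Aqp1 rose in both comparisons. Across birth 3 of the 13 rose and none fell (19.8% and 19.0% of all genes). At 8W, 4 of the 13 had no count, namely Hbb-bh1, Hbb-y and Hba-x, which are globins of the embryo, and Rhag. The part of red cells in the Aqp1 level was not tested.

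Btnl9 encodes a butyrophilin-like protein found on endothelium, whose function is little known (chromosome 11, 49165585 to 49187159, minus strand). Its RefSeq window is chr11:49187040-49187339 on the minus strand of GRCm38.p6, with the CAGGAAG match, again as CTTCCTG, in capitals and beginning at position -35.
Btnl9: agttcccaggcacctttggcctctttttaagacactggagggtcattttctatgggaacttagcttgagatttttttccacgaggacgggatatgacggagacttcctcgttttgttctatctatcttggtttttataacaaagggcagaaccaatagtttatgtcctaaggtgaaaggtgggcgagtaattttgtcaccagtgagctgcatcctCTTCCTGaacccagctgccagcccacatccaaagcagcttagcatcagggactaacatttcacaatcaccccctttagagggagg
The 3 libraries of E10.5 held 1 Btnl9 count among them, in replicate 1. Btnl9 then held 2.545, 2.409 and 1.914 CPM in E12.5, 6.844, 8.774 and 9.335 in E14.5, 16.04, 15.61 and 14.25 in E16.5 and 22.73, 23.23 and 23.48 in E18.5. After birth it held 28.7, 20.87 and 22.93 CPM in P1, 50.19, 49.13 and 55.21 in 1W, 59.38, 66.12 and 65.91 in 2W, 57.91, 55.38 and 51.25 in 4W and 33.44, 39.2 and 35.34 in 8W. Up to E18.5 the ages did not overlap, P1 and E18.5 overlapped, and 8W lay below 1W, 2W and 4W. On summed counts the ratio of E12.5 to E10.5 was 241 (303 counts against 1), which rests on that 1 count. The ratio of E14.5 to E12.5 was 3.65. Both ratios describe values on which Btnl9 was selected. Of the other butyrophilin genes listed (9), 4 passed the filter on low counts, and Ermap, an erythroid member, fell from 12.2 ± 1.90 CPM at E10.5 to 0.357 ± 0.242 at E18.5 (-5.19 ± 0.29, edgeR adjusted p = 1.2e-16). From P1 to 8W, 3 of these 4 fell and none rose (35.1% and 31.8% of all genes). From E18.5 to P1, 1 fell and none rose (19.0% and 19.8%).

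The comparison of E10.5 with E18.5 spans the part of gestation sampled. Of the 9 tested members, 7 rose (Pecam1, Cdh5, Kdr, Flt1, Tie1, Nos3 and Aqp1), where 32.9% of all genes did, and Tek fell, where 30.4% of all genes did. The median log2 change was 0.68 for the 9 members and -0.001 for all genes. The calls numbered 8 in every fit that left out 1 library, E10.5 replicate 2 included, and under every other scaling, filter and tool tried.

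Across birth, from E18.5 to P1, 4 members rose (Pecam1, Cdh5, Tek and Tie1), where 19.8% of all genes did, and 2 fell (Kdr and Flt1), where 19.0% did. The VEGF receptors were thus lower in the libraries in which Pecam1 and Tie1 were higher. Without P1 replicate 2, 3 members were called instead of 6, 2 higher and 1 lower, since Cdh5, Kdr and Tek lost their calls. Pecam1 and Tie1, each highest of their group in that replicate, kept theirs. Aqp1, also highest there, was not called with all libraries. With library size alone 2 members rose and 2 fell, since Cdh5 (0.086, edgeR adjusted p = 0.47) and Tek (0.145, 0.27) did not pass, and 13.4% of all genes rose and 24.5% fell. With no filter Cdh5 did not pass either (0.11).

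From P1 to 8W, 3 members rose (Kdr, Flt1 and Aqp1), where 31.8% of all genes did, and 5 fell (Pecam1, Cdh5, Tek, Tie1 and Nos3), where 35.1% did. Without the Kdr call, which turned with library size alone, the risers were Flt1 and Aqp1. The median over all genes was -0.10 with TMM and -0.88 with library size alone. With library size alone 2 members rose and 6 fell, where 11.5% of all genes rose and 65.2% fell. With upper quartile factors 3 members rose and 6 fell, where 25.3% and 42.7% of all genes did. The P1 and 8W libraries differed in sex-linked transcripts. With a term for sex 3 members rose and 4 fell, where 28.8% and 31.3% of all genes did.

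**Figure D3:**
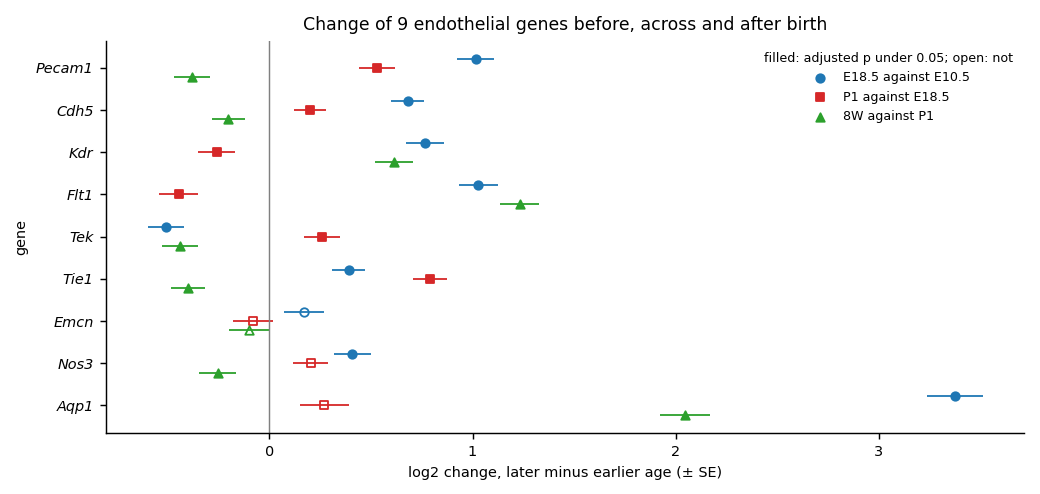
Log2 change of the 9 tested genes (horizontal axis, later minus earlier age, bars ± SE) for E10.5 to E18.5 (circles), E18.5 to P1 (squares) and P1 to 8W (triangles). Filled symbols passed an adjusted p of 0.05; Aqp1 has the largest changes before birth (3.37) and after it (2.05), and Tek lies on the negative side in both.

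Over the whole span from E10.5 to 8W, 7 members rose (Pecam1, Cdh5, Kdr, Flt1, Tie1, Nos3 and Aqp1), where 37.8% of all genes did, and Tek fell (-0.69 ± 0.09, edgeR adjusted p = 1.8e-08), where 42.1% did. Several of these calls depended on the scaling. With library size alone, Cdh5 (-0.37), Tie1 (-0.27) and Nos3 (-0.70) fell in place of rising, Pecam1 and Kdr did not pass, and 2 members rose and 5 fell, where 20.2% of all genes rose and 65.5% fell. The median over all genes went from -0.15 to -1.19. With upper quartile factors, 6 members rose and 2 fell: Nos3 did not pass (0.083, edgeR adjusted p = 0.37) and Emcn fell (-0.28, 0.011). Flt1 (1.81 ± 0.10, 1.1e-17) and Aqp1 (5.69 ± 0.15, 4.9e-25) rose under every scaling tried.

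The steps between neighbouring ages place these changes. Calls at each step are set against the share of all genes called in the same direction. From E10.5 to E12.5, 5 members rose and none fell (31.0% and 24.4% of all genes), and from E12.5 to E14.5, 4 rose and none fell (10.5% and 7.8%). Tie1, Nos3 and Aqp1 led the former step, and Flt1 (0.61 ± 0.10) and Cdh5 (0.60 ± 0.08) the latter. From E14.5 to E16.5, Aqp1 rose (14.1% of all genes did) and Tek and Tie1 fell (12.0%), and from E16.5 to E18.5, Kdr and Flt1 rose (13.0%) and Tie1 and Nos3 fell (11.2%). The Cdh5 call from E10.5 to E12.5 (0.19 ± 0.08, edgeR adjusted p = 0.044) was lost in 9 of 30 fits that left out 1 library. The call of Tie1 from E14.5 to E16.5 was lost in 20 of 30 such fits, that of Kdr from E16.5 to E18.5 in 25 of 30, and that of Nos3 over the same days without E16.5 replicate 1 or E18.5 replicate 3.

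After birth, from P1 to 1W, Cdh5, Kdr, Flt1 and Aqp1 rose (18.8% of all genes) and Emcn fell (17.0%). From 1W to 2W, Flt1, Tie1, Emcn and Aqp1 rose and none fell (15.5% and 14.1%), and from 2W to 4W, Aqp1 rose (15.8%) and Pecam1 and Cdh5 fell (13.0%). From 4W to 8W, 6 members fell and none rose (12.1% and 11.8%), namely Pecam1, Cdh5, Kdr, Tek, Tie1 and Emcn. Emcn lost that call in 17 of 30 fits that left out 1 library, Pecam1 without 4W replicate 1 or 2 or any 8W library, and Kdr without 4W replicate 1 or 2 or 8W replicate 2. Aqp1 lost the call from P1 to 1W without P1 replicate 1 or 3. From 1W to 2W, Tie1 lost its call without 1W replicate 3 or 2W replicate 1 or 2, and Emcn without 1W replicate 1. With library size alone the background split of rising and falling genes was 7.82% and 20.8% from E14.5 to E16.5, 9.48% and 14.3% from E16.5 to E18.5, 13.0% and 23.3% from P1 to 1W, 5.87% and 36.2% from 1W to 2W, 6.46% and 27.6% from 2W to 4W, and 4.15% and 19.5% from 4W to 8W. Upper quartile factors gave 12.3% and 16.8% for the step to 4W and 8.72% and 14.3% for that to 8W. Over the 8 steps other than that across birth, the member calls with TMM factors were 21 higher and 13 lower. With library size alone they were 16 higher and 22 lower, and with upper quartile factors 20 higher and 17 lower. The balance of rises and falls thus depended on the scaling.

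To set the members against other endothelial genes without scaling between libraries, each was expressed relative to a mean log2 CPM. The mean was that of 16 other pan-endothelial genes (among them Egfl7, Esam, Eng, Robo4, Ptprb and Erg). That mean stood at 4.01 for E10.5, 5.23 for E18.5, 5.87 for 2W and 5.21 for 8W on the log2 scale. The 16 genes did not move alike. From E10.5 to E18.5 their median change was 0.75, while Cldn5, a gene of low level, rose by 4.17 ± 0.21. A lower relative level can thus come from a rise of the reference. Emcn, for example, held 49.85 CPM at E10.5 and 56.15 at E18.5, yet was lower relative to the reference. Relative to it, all 9 tested members differed between ages (permutation tests of the F ratio with 100000 resamples, adjusted p = 0.0019 for Pecam1 and 1.1e-05 for the others, from a p that is the smallest it can give). Pecam1 and Cdh5 moved least, with ranges of 0.45 and 0.59 between the highest and lowest age mean, and Kdr had a range of 0.88. Tek was 3.63 above the reference at E10.5 and 1.56 above it at 2W, and Emcn went from 1.63 above it at E10.5 to 0.42 below it at 1W. Nos3 went from 1.27 above at E12.5 to 0.02 above at 2W. Aqp1 was the opposite case, 0.81 below the reference at E10.5 and 3.67 above it at 8W, and Flt1 went from 1.05 above at P1 to 2.49 above at 8W. Btnl9 stood 3.52 below at E12.5 and 0.22 above at 4W.

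**Figure D4:**
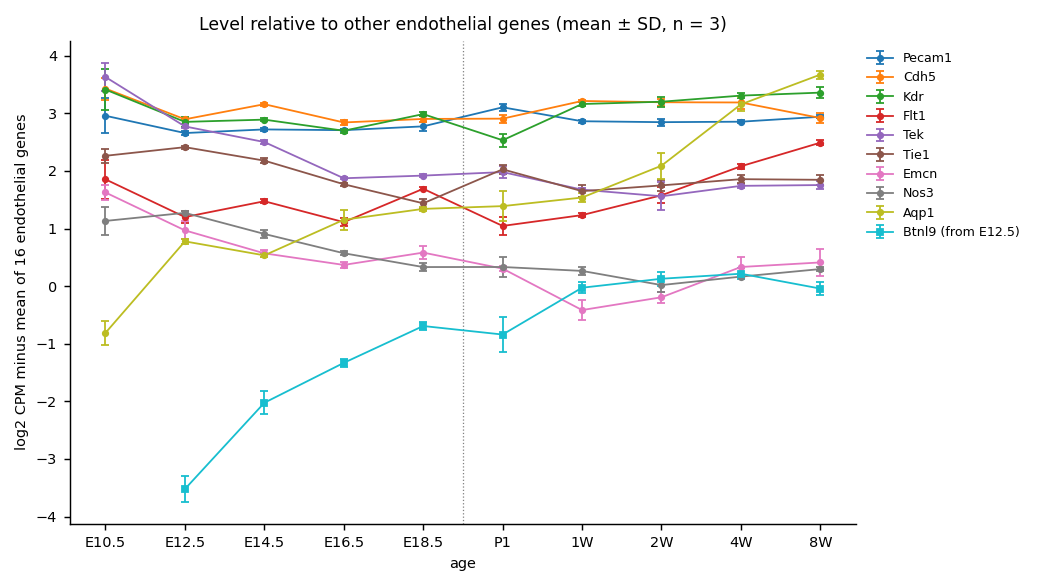
Log2 CPM of each gene minus the mean log2 CPM of 16 other endothelial genes (vertical axis) by age (horizontal axis), mean ± SD of 3 libraries; Btnl9 is drawn from E12.5 on because E10.5 held 1 count. The dotted line marks birth; Aqp1 climbs from -0.81 to 3.67, Tek descends from 3.63 at E10.5 to 1.56 at 2W, and Pecam1 stays within 0.45.

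Over all genes, the median log2 change was -0.001 from E10.5 to E18.5, -0.005 from E18.5 to P1 and -0.10 from P1 to 8W, beside which the medians of the following lists, computed with TMM factors only, are given. Of all genes, 32.9% rose and 30.4% fell from E10.5 to E18.5, and 19.8% rose and 19.0% fell from E18.5 to P1. From P1 to 8W, 31.8% rose and 35.1% fell. The counts of every list and marker set below are to be read beside these shares. A count near them does not set a list apart from all genes. Of the 16 reference genes themselves, 14 rose and none fell from E10.5 to E18.5 (median 0.75), 8 rose and 1 fell from E18.5 to P1 (0.23), and 5 rose and 8 fell from P1 to 8W (-0.21). Cldn5, the claudin of endothelial tight junctions, went from 0.723 ± 0.435 CPM at E10.5 to 12.5 ± 1.14 at E18.5 and 30.4 ± 4.29 at P1, and back to 11.4 ± 0.584 at 8W. Ptprb, a phosphatase that acts on TEK and VE-cadherin, rose from 195 ± 8.31 CPM at P1 to 357 ± 6.51 at 8W (0.87 ± 0.09, edgeR adjusted p = 1.5e-10).

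The ligands of these receptors also changed with age. Of 17 listed VEGF and angiopoietin ligands, co-receptors and related genes, 13 rose and 3 fell from E10.5 to E18.5 (median 1.41), 1 rose and 8 fell from E18.5 to P1 (-0.21), and 10 rose and 4 fell from P1 to 8W (0.40). Vegfa, the ligand of KDR and FLT1, held 54.93, 38.23 and 46.71 CPM in E10.5, 123.9, 125.5 and 121.2 in E18.5, 90.53, 68.47 and 73.87 in P1 and 446.2, 408.7 and 385.3 in 8W. Like the receptors, it was lower in all 3 P1 libraries than in those of E18.5 (-0.67 ± 0.10, edgeR adjusted p = 1.5e-06), and it rose from P1 to 8W (2.41 ± 0.10, 1e-19). Angpt1, the activating ligand of TEK, fell from 101 ± 8.76 CPM at E10.5 to 23.7 ± 3.56 at E18.5 (-2.09 ± 0.14, 1.2e-13). It rose to 34.1 ± 1.41 at P1 (0.52 ± 0.14, edgeR adjusted p = 0.003), and stood at 9.96 ± 0.831 at 1W and 45.1 ± 5.50 at 8W. Angpt2, which can oppose it, stood at 13.9 ± 1.46 CPM at E16.5 and 13.8 ± 0.875 at E18.5, with overlapping libraries, and fell from P1 to 8W (-1.05 ± 0.15, 2.5e-07). Apln, a peptide of sprouting endothelium, rose from 0.327 ± 0.0594 CPM at E10.5 to 22.2 ± 1.34 at E18.5, fell to 8.04 ± 3.46 at P1 and stood at 45.1 ± 4.48 at 1W.

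**Figure D5:**
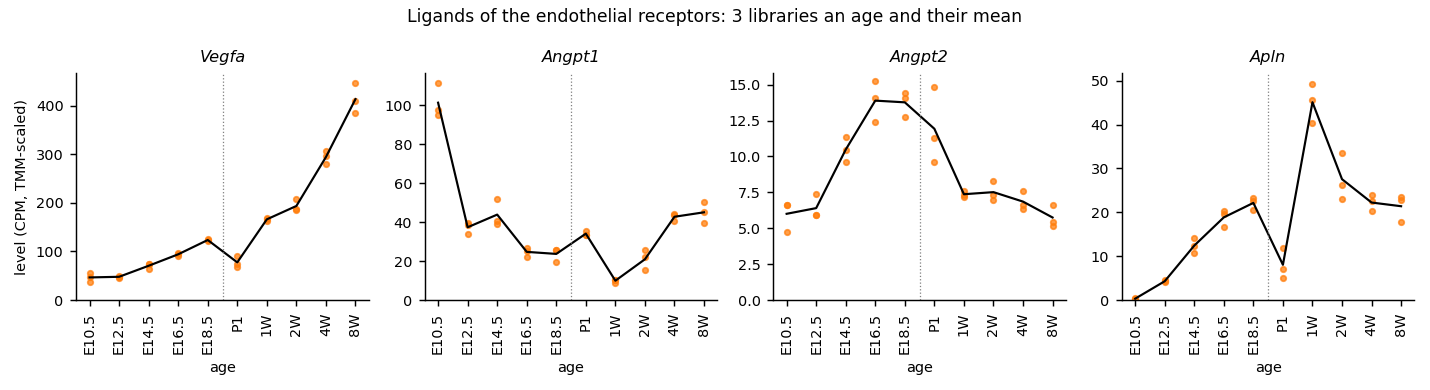
Level of 4 ligand genes (vertical axes, CPM scaled by TMM factors, from 0) by age (horizontal axes). Points are single libraries, 3 an age, lines join their means, and the dotted line marks birth; Vegfa dips at P1 and reaches 413.4 CPM at 8W, and Apln dips at P1 and peaks at 1W.

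Aqp1 is a gene of capillary transport, and other genes of capillary lipid uptake and transport are set beside it. Of 18 listed, 15 rose and 3 fell from E10.5 to E18.5 (median 3.50), 11 rose and 4 fell from E18.5 to P1 (0.78), and 11 rose and 6 fell from P1 to 8W (0.56). Gpihbp1, which holds lipoprotein lipase on capillaries, stood at 0.0243 ± 0.0422 CPM at E10.5, 31.0 ± 3.43 by E18.5 and 75.7 by 8W. Car4, a carbonic anhydrase of capillary surfaces, fell from E10.5 to E18.5 (-2.56 ± 0.22, edgeR adjusted p = 2.7e-11) and rose from E18.5 to P1 (3.36 ± 0.22, 1.1e-12).

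Of 23 endothelial transcription factors, 13 rose and 6 fell from E10.5 to E18.5 (median 0.40), 5 rose and 6 fell from E18.5 to P1 (0.00), and 9 rose and 7 fell from P1 to 8W (0.10). Epas1, the hypoxia-inducible factor HIF-2alpha, rose from 99.0 ± 8.13 CPM at P1 to 485 ± 2.68 at 8W (2.29 ± 0.08, edgeR adjusted p = 1.4e-21). Tal1, a factor of early blood and endocardium, fell from E10.5 to E18.5 (-1.72 ± 0.12, 2.3e-14). Of 16 genes of the nitric oxide pathway around Nos3, 7 rose and 4 fell from E10.5 to E18.5 (0.13), 1 rose and 4 fell from E18.5 to P1 (-0.06), and 7 rose and 6 fell from P1 to 8W (0.24). Ddah1 and Ddah2 break down an inhibitor of nitric oxide synthases. Ddah1 fell from E18.5 to P1 (-1.31 ± 0.13, 1.5e-09), and Ddah2 fell from P1 to 8W (-1.33 ± 0.11, 1.7e-12).

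The members do not tell vessel types apart, so markers of arteries and veins were counted. Of 13 arterial markers, 6 rose and 2 fell from E10.5 to E18.5 (median 0.20), 1 rose and 5 fell from E18.5 to P1 (-0.15), and 3 rose and 9 fell from P1 to 8W (-0.85), with Hey2, a Notch target, at -2.91 ± 0.12 (edgeR adjusted p = 1.1e-19). Of 9 venous markers, 6 rose and 2 fell (1.23), 4 rose and 1 fell (0.21), and 3 rose and 4 fell (-0.59) in the same comparisons, with the adhesion gene Vcam1 falling in the last (-1.38 ± 0.08, 6.8e-17). Of 10 other aquaporin genes, 6 passed the filter, and over the same 3 spans 2 rose and 3 fell, then 1 rose and none fell, and then 2 rose and 2 fell. Aqp7, an aquaglyceroporin, rose in all 3 comparisons (2.40 ± 0.36, 2.45 ± 0.24 and 1.36 ± 0.21), and Aqp4 fell in the last (-1.01 ± 0.19, 6.1e-05).

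Markers of other cells that carry some of these genes moved with age as well, and their part in the members' changes was not tested. The summed level of 10 endocardial markers was 1208 to 1350 CPM at E10.5, 459.5 to 477.1 in E18.5, 429.5 to 490.6 in P1 and 256.2 to 282.6 in 8W, and 6 of the 10 fell and 3 rose from E10.5 to E18.5. The endocardial gene Hapln1 alone stood at 596 ± 96.7 CPM at E10.5 and 4.40 ± 0.526 at E18.5. Macrophage markers, 12 in number, summed to 27.68 to 30.94 CPM at E10.5, 135.8 to 159.3 in E18.5, 178 to 251.4 in P1 and 586.1 to 613.5 in 8W. Of them 11 rose and none fell from E10.5 to E18.5, and Cd163 had no count at E10.5. The 10 megakaryocyte and platelet markers, which bear on Pecam1, summed to 65.09 to 70.32 CPM at E10.5 and 30.53 to 36.33 at E18.5, and 9 fell and none rose between them, while Pecam1 rose. Across birth, where Pecam1 rose as well, 2 of these markers rose and none fell (33.82 to 48.87 CPM in P1), and from P1 to 8W, where Pecam1 fell, 5 rose and 1 fell (50.73 to 62.03 CPM in 8W). The 8 lymphatic markers summed to 101.2 to 135.6 CPM at E10.5, 239.7 to 243.8 in E18.5 and 348.4 to 353.2 in 8W, and 6 rose and none fell from E10.5 to E18.5. Their chemokine gene Ccl21a had no count at E10.5. Prox1 held more of the sum than any other of the 8, with 59.28 CPM at E10.5, 110.9 at E18.5, 127.7 at P1 and 203.3 at 8W. The mean sum of the 8 was 261.8 CPM at P1 and 350.0 at 8W. The sum thus follows Prox1 in large part and was not taken as a measure of lymphatic endothelium. From P1 to 8W, 3 of the lymphatic markers rose and 3 fell. The summed level of 12 cardiomyocyte markers went from 27834 to 47039 CPM at E10.5 to between 251958 and 272024 at 8W.

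The genes whose course over the 10 age means was most like that of each member were found among 15950 genes with a symbol and at least 1 CPM at 1 age. The likeness is a Pearson correlation of log2 CPM over 10 means from the same libraries and is given with no test. For Pecam1 the closest was Npr1, a natriuretic peptide receptor (0.996). For Cdh5 it was Tnr (0.983) and then Fgd5 (0.982), and for Kdr Lrrc55 (0.991) and then Sipa1l3 (0.989). For Flt1 it was Kmt2a (0.988), for Tek Arhgap17 (0.962) and then Igf1 (0.953), and for Tie1 Gm26883 (0.949) and then Ccdc157 (0.942). Emcn had no close partner, with 0.824 for Hpgd at the top. For Nos3 it was Arhgef40 (0.966) and then Epb41l1 (0.960), and for Aqp1 Hspb7, a heat shock protein gene of heart muscle (0.997). For Btnl9 it was Tnxb (0.998), followed by Bgn (0.996), Adgre5, Heyl and Timp2 (0.993). The Btnl9 values come from a gene selected on these data, and its E10.5 mean rests on 1 count.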

How the data were processed

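Poly(A)-selected RNA of hearts was sequenced at 10 ages with 3 libraries each. The authors deposited 1 table of expected counts; 6.94% of the values differed from a whole number by over 1e-06, and the counts were rounded for the tests. STAR 2.5.3a, fastp 0.18.0 and the genome GRCm38 (mm10) are listed, per the submitters' processing notes, with no step named for them. How reads were counted, with which annotation and strand setting, is not given in the sources used here. Symbols and places came from GENCODE M21 by gene identifier without version (48058 of 48820 genes matched, and those unmatched took 0.23% of all counts).

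All 30 libraries entered 1 edgeR 4.0.16 fit (R 4.3.3) with 10 group means, TMM factors, filterByExpr (19280 genes kept, all 10 members among them) and robust quasi-likelihood F tests, with Benjamini-Hochberg adjustment over all genes. A standard error is |log2 change| over √F. FPKM is CPM per kilobase of the union of a gene's exons. Shares and levels relative to 16 endothelial genes (log2 CPM, prior count 2) were tested by permutation in Python 3.11.15 with scipy 1.17.1. Replicates were checked for duplicated libraries, and the lowest chi-square per degree of freedom within an age was 6.77, so none were merged. Each test script was first tested on simulated data.

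The members and gene lists were chosen with earlier results of these data known, so none is independent evidence. The genes named were all members, for each list and each of 3 comparisons (before, across and after birth) the called genes that rose and fell most, where the higher group averaged 1 CPM or more, and the 5 genes most like each member, from which examples were taken. The full course of 4 ligands was drawn after their values were seen. Promoters came from a RefSeq table of build GRCm38.p6 that held 7 of the 10 members, and were searched on both strands. The alternatives covered scaling (RLE, upper quartile, library size alone), filtering (none or stricter), leaving out globin and mitochondrially encoded genes, the tool (DESeq2 1.42.0), added terms (replicate block, sex), fits of 6 samples and the omission of single libraries.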

Additional observations from a re-analysis of the deposited data

How the results depend on the processing

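Over the alternatives, all 9 tested members kept a call across the ages, as absolute and as relative levels, and both shares kept theirs. The calls in P1 against E18.5 numbered 3 to 7 when 1 library was left out (6 with all), those in 8W against P1 6 to 8 (8 with all), and those over the 8 other steps 29 to 40 (34 with all). The replicate numbers were not taken to pair the libraries: same-numbered libraries of different ages had a median correlation of deviations of 0.0077 (7 of 135 pairs over 0.1), against -0.00674 for other numbers. Not every library but 19 of 30 correlated best with its own number, a hint from the data and not the design. With a replicate block the step count was 34 and the P1 count 6, and the block changed no call of a member.

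Signs turned mostly with library size alone. It gave log2 changes of -0.16 for Kdr, 8W against P1, and -0.026 for Cytl1, 8W against P1. It gave -0.37 for Cdh5, 8W against E10.5, -0.27 for Tie1, 8W against E10.5, and -0.70 for Nos3, 8W against E10.5. For E18.5 against E16.5 it gave -0.027 for Pecam1, -0.034 for Cdh5 and -0.048 for Tek; for 1W against P1, -0.06 for Pecam1; for 2W against 1W, -0.15 for Pecam1, -0.15 for Cdh5, -0.093 for Kdr, -0.24 for Tek and -0.03 for Tie1; and for Flt1, -0.026 (4W against 2W) and -0.10 (8W against 4W). Of the other alternatives, Emcn, 8W against E10.5, turned with no filter (0.018), with mitochondrially encoded and globin genes left out (0.006) and with only the 6 samples (0.025). Flt1, E12.5 against E10.5, turned with only the 6 samples (-0.009), and Kdr (0.011) and Emcn (0.003) in E16.5 against E14.5 with mitochondrially encoded and globin genes left out. Tek, E18.5 against E16.5, turned with upper quartile factors (-0.005) and with the sex term (-0.001). The cause of the turns was not tested; except for Kdr in 8W against P1, Cdh5, Tie1 and Nos3 in 8W against E10.5, Tie1 in 2W against 1W and Cytl1, none had been called.

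Leaving out 1 library turned only changes that had not been called. Their ranges were, in E18.5 against E16.5, -0.042 to 0.079 for Pecam1, -0.035 to 0.057 for Cdh5 and -0.034 to 0.024 for Tek; for Emcn, -0.133 to 0.098 in 8W against E10.5, -0.207 to 0.024 in 8W against P1 and -0.042 to 0.024 (E16.5 against E14.5); in E12.5 against E10.5, -0.064 to 0.249 for Flt1 and -0.212 to 0.008 for Tek; -0.034 to 0.022 for Kdr (E16.5 against E14.5); between 1W and 2W, -0.142 to 0.005 for Nos3 and -0.059 to 0.142 for Tek; -0.065 to 0.03 for Nos3 in E14.5 against E12.5; and in 1W against P1, -0.071 to 0.039 for Tek and -0.139 to 0.004 for Tie1. Over all genes, E14.5 against E12.5 gave 3527 called genes, and 6206 where the fit held just those 6 libraries. Depth was at least 23164941 counts a library, and Btnl9 at E10.5 (1 count) is the member it limits.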
